A study of Rattus norvegicus with 49 samples.

Results

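Liver gene expression at the 2 high doses with tissue, 500 and 1000 mg/kg, was set against that at the 3 low doses, 1, 10 and 100 mg/kg. Arrays were chosen by the organ and dose in their titles, which took 20 of the 49 arrays of the study: 8 high-dose arrays and 12 low-dose arrays, 4 at each dose. The rats of every group were males of the outbred Harlan Sprague Dawley stock, were 6 to 8 weeks old when assigned and were given propylene glycol phenyl ether, a glycol ether solvent, in corn oil by gavage (5 mL/kg) on 5 consecutive days, with tissue taken 1 day after the last dose. The treatment text of the labels names another compound, MCHM, and the compound of the title and sample labels is followed here. No tissue came from the 2000 mg/kg group, which was killed moribund, so 1000 mg/kg was the highest dose measured. The 5 liver arrays of rats given corn oil alone entered neither the differences nor, outside 1 alternative, the spread. Their levels are given only as a description. Levels are log2 values of whole-liver RNA, on which a difference of 1 is a 2-fold difference, and in such bulk RNA fewer cells of a type and less RNA per cell cannot be told apart.

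The liver disposes of foreign compounds by oxidizing, hydrolysing or conjugating them and then exporting the products into bile or blood. Genes for these steps are controlled by transcription factors that sense chemicals: NRF2, which answers oxidants and electrophiles through the antioxidant response element, and the nuclear receptors CAR and PXR, which bind drugs and many other lipophilic molecules. Hepatocytes also make cholesterol and secrete most circulating IGF1, and in adult liver they rarely divide.

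The 20 arrays had medians of 6.51 to 6.62, and pairs of them correlated at 0.987 or more across 14217 genes. Markers of hepatocytes were high on both sides: the mean of 9 such genes, Alb and Ttr among them, lay between 12.99 and 13.13 on the high-dose arrays and between 12.87 and 13.15 on the low-dose arrays. The kidney marker list averaged 4.43 to 4.48 on the high-dose arrays and 4.33 to 4.64 on the low-dose arrays. None of the 10 cell type marker lists had a member that passed in the high against low comparison, where 0.120% of all genes did. At that share lists of this size would usually hold none. Their array means overlapped between the sides. For macrophage and Kupffer cell markers the array means were 8.57 to 9.12 at high and 8.62 to 9.10 at low doses, and for stellate and fibroblast markers 6.79 to 7.22 at high and 6.52 to 7.39 at low doses. At 1000 mg/kg alone 2 markers passed, both lower: Apoa1 of the hepatocyte list (-0.29; limma adjusted p = 0.0393) and Kap of the kidney list (-0.63; adjusted p = 0.0339). Over all genes 0.577% passed at that dose. The stellate and fibroblast list had a median of -0.14 there with 9 of 12 differences below 0, and the macrophage and Kupffer list -0.13 with 8 of 10 below 0. Their part in the results at 1000 mg/kg was not tested.

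Of the 14217 genes, 17 (0.120%) differed between the high and the low doses in limma, with an adjusted p under 0.05 after Benjamini-Hochberg adjustment over all genes. The 8 that were higher (0.0563%) were led by enzymes and a transporter of foreign compound disposal, Gsta3, Abcc3, Ces2c, Akr7a3, Gstt3, Nqo1, Glyatl2 and Gstp1. The 9 that were lower (0.0633%) were Ccnd1, Slc34a2, Nrep, Slc6a6, Dnajc24, Zmiz2, Mmp14, Abca8a and Nectin2. Sizes ran from 0.25 to 1.33 on the log2 scale, and 8 of the 17 were at least 1.5-fold. At an unadjusted p under 0.05 there were 1043 genes (7.34%). The count was 10 without 500 mg/kg replicate 3, 11 with the replicate number as a block, 6 when the 8 and 12 arrays were fitted as 2 groups with no dose means, 43 with a variance trend and 44 when only the brighter genes were tested.

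Promoters are shown for the 3 genes among the 8 higher ones whose sequence around the start site holds the core of the antioxidant response element, the DNA element that NRF2 binds. Each runs 5′ to 3′ from 250 bases before to 50 bases after the RefSeq start site on the GRCr8 assembly, and capitals mark the match.
Gsta3, chr9:31154739-31155038, forward strand: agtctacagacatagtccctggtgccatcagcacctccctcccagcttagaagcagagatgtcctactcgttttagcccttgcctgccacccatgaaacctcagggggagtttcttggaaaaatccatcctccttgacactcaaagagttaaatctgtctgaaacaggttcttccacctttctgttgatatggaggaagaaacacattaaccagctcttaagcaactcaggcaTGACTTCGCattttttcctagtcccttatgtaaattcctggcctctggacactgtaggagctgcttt
Gstp1, chr1:210769656-210769955, reverse strand: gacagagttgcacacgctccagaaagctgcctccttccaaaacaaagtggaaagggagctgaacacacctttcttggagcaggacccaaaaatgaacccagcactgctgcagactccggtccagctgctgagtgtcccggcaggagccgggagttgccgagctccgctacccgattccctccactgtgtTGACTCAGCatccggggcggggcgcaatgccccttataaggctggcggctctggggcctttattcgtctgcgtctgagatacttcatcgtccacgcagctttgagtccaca
Glyatl2, chr1:219231904-219232203, forward strand: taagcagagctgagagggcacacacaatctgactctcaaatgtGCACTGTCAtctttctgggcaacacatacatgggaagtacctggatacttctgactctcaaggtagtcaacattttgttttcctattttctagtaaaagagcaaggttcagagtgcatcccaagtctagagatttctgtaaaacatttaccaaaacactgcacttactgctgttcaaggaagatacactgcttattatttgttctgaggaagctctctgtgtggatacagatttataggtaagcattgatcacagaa
The letters searched were TGACNNNGC on both strands. Counted from the start site, the match begins at base -17 in Gsta3 and at base -61 in Gstp1, both on the strand shown, and at base -207 in Glyatl2, on the opposite strand. For Gsta3 RefSeq lists 2 start sites, and the first listed was used. Among the higher genes 3 of the 7 with a RefSeq promoter hold the letters and among the lower genes 1 of 4, Slc6a6, against 1685 of 11734 measured genes with a promoter (14.4%). A match describes these letters in this window only.

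Glutathione transferases join glutathione to reactive molecules, and 3 of them rose. Gsta3, of the alpha class, measured 8.40, 7.92, 8.66 and 8.45 at 500 mg/kg and 9.23, 9.54, 9.68 and 9.24 at 1000 mg/kg, against 7.0 to 8.62 with a median of 7.67 on the 12 low-dose arrays. All 4 arrays at 1000 mg/kg and 1 at 500 mg/kg lay above every low-dose array. The means were 8.89 ± 0.62 (SD, n = 8) at high and 7.56 ± 0.47 (SD, n = 12) at low doses, a 2.51-fold rise of 1.33 ± 0.16 (SE; limma adjusted p = 0.000945). Gstt3, of the theta class, measured 10.17, 10.38, 10.17 and 10.62 at 500 mg/kg and 10.69, 11.01, 11.07 and 10.99 at 1000 mg/kg, against 9.49 to 10.46 with a median of 9.96 at low doses. Its 1000 mg/kg arrays again all lay above the low-dose arrays, with 1 at 500 mg/kg, and it rose by 0.72 ± 0.11 (SE; limma adjusted p = 0.00447).

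Gstp1, the pi class enzyme that is scarce in normal rat hepatocytes, rose by less. It measured 9.03, 8.89, 9.03 and 9.0 at 500 mg/kg and 9.23, 9.45, 9.76 and 9.33 at 1000 mg/kg, against 8.72 to 8.98 with a median of 8.85 at low doses. On 7 of the 8 high-dose arrays the level was above every low-dose array, and the difference was 0.36 ± 0.06 (SE; limma adjusted p = 0.0164, and 0.142 at most under the alternatives, where it missed the threshold without 500 mg/kg replicate 3). The other 17 of 20 measured glutathione transferases did not pass between high and low doses, where 0.0563% of all genes were higher. At 1000 mg/kg alone Gstm5, another member of the list, passed and was lower, where 0.281% of all genes were. Gstt1, of the theta class like Gstt3, differed by 0.26 (limma adjusted p = 0.228). The list's median was 0.06, beside 0.00 over all genes. Probe sets of close relatives in this family may bind each other's transcripts, which was not tested.

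Abcc3, the exporter MRP3 that moves glucuronides and other organic anions out of the hepatocyte into blood, had the smallest p of all genes. It measured 5.88, 6.32, 5.81 and 5.76 at 500 mg/kg and 6.65, 7.32, 7.53 and 7.13 at 1000 mg/kg, against 5.30 to 5.89 with a median of 5.63 at low doses. The 1000 mg/kg arrays were all far above the low-dose range, while only 1 array at 500 mg/kg left it. That low-dose range lay below the array medians of 6.51 to 6.62, and background at such levels is unknown. The means were 6.55 ± 0.72 (SD, n = 8) at high and 5.62 ± 0.18 (SD, n = 12) at low doses, a 1.91-fold rise of 0.93 ± 0.10 (SE; limma adjusted p = 0.000163). Abcc2, the exporter MRP2 of the bile side, was 10.08 ± 0.16 at high and 10.40 ± 0.21 at low doses (SD) and did not pass in this comparison (-0.32; adjusted p = 0.0711).

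Ces2c, a carboxylesterase that hydrolyses ester bonds, measured 7.66, 8.09, 7.80 and 7.91 at 500 mg/kg and 8.54, 8.73, 9.34 and 8.53 at 1000 mg/kg, against 6.99 to 7.81 with a median of 7.48 at low doses. On 6 of the 8 high-dose arrays it was above every low-dose array. It rose 1.83-fold, by 0.88 ± 0.12 (SE; limma adjusted p = 0.00196). Glyatl2, a glycine N-acyltransferase family member, measured 8.53, 8.52, 8.44 and 8.65 at 500 mg/kg and 9.16, 9.33, 9.33 and 8.77 at 1000 mg/kg, against 7.92 to 8.59 with a median of 8.32 at low doses. Its rise was 0.54 ± 0.08 (SE; limma adjusted p = 0.00356), with 5 high-dose arrays above the low-dose range.

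Nqo1, a quinone reductase and classic NRF2 target, measured 8.20, 8.03, 8.36 and 8.21 at 500 mg/kg and 8.71, 8.55, 8.78 and 8.45 at 1000 mg/kg, against 7.56 to 8.12 with a median of 7.82 at low doses. On 7 of the 8 high-dose arrays it was above every low-dose array. The rise was 1.49-fold, 0.57 ± 0.08 on the log2 scale (SE; limma adjusted p = 0.00196). Akr7a3, an aldo-keto reductase that acts on aflatoxin dialdehyde in rat liver, measured 11.24, 10.79, 11.38 and 11.88 at 500 mg/kg and 11.99, 11.29, 11.88 and 11.84 at 1000 mg/kg, against 10.37 to 11.31 with a median of 10.87 at low doses. Its difference of 0.74 ± 0.14 (SE; limma adjusted p = 0.0380) was among the least firm, passing in 6 of the 20 fits that each left out 1 array.

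**Figure D1:**
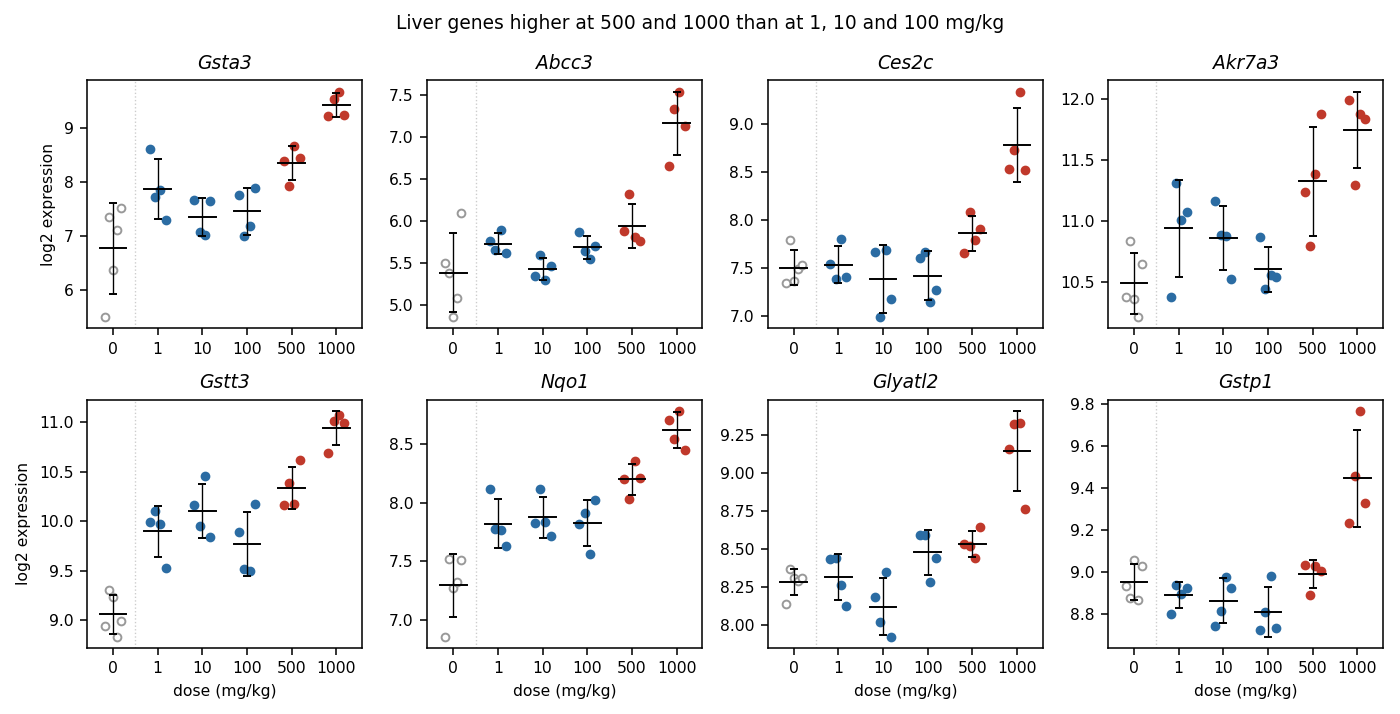
Log2 expression (vertical axes) of the 8 genes that rose, by dose in mg/kg, with 1 point per liver array, high doses in red, low doses in blue and vehicle as open grey points that entered no difference; bars are the mean ± SD of each dose. In each panel the mean is highest at 1000 mg/kg and the 500 mg/kg mean lies between it and the low-dose means, as for Abcc3 with 7.16 at 1000 mg/kg and 5.94 at 500 mg/kg. Each panel has at least 1 array of 500 mg/kg within the low-dose range, and most lie there for Gsta3, Gstt3, Abcc3 and Glyatl2.

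Ccnd1 encodes cyclin D1, which drives cells from G1 towards DNA synthesis. It measured 9.61, 9.23, 8.53 and 8.26 at 500 mg/kg and 8.04, 7.74, 8.31 and 7.95 at 1000 mg/kg, against 8.68 to 9.89 with a median of 9.42 at low doses. All 4 arrays at 1000 mg/kg and 2 at 500 mg/kg lay below every low-dose array, while the other two at 500 mg/kg lay within the low-dose range. The means were 8.46 ± 0.65 (SD, n = 8) at high and 9.37 ± 0.32 (SD, n = 12) at low doses, a fall of 1.89-fold (-0.92 ± 0.16 SE; limma adjusted p = 0.0168). Both other probe sets of Ccnd1 also passed. The call was lost when replicate 3 of 500 mg/kg or replicate 2 of 1000 mg/kg was left out, and the largest adjusted p under the alternatives was 0.103.

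Slc34a2, a sodium-phosphate cotransporter, and Abca8a, an ABC transporter, were the lower genes whose 8 high-dose arrays all lay below the 12 low-dose arrays. Slc34a2 measured 7.89, 7.56, 7.35 and 7.34 at 500 mg/kg and 7.86, 7.43, 7.26 and 7.64 at 1000 mg/kg, against 7.95 to 9.04 with a median of 8.33 at low doses. It fell 1.78-fold (-0.83 ± 0.13 SE; limma adjusted p = 0.00626), by similar sizes at both doses. Abca8a measured 9.79, 9.73, 9.65 and 9.51 at 500 mg/kg and 9.60, 9.66, 9.65 and 9.56 at 1000 mg/kg, against 9.81 to 10.14 with a median of 9.92 at low doses. Its fall was small (-0.29 ± 0.05 SE; limma adjusted p = 0.0120). Over all genes 3 (0.0211%) had no overlap between the sides, these 2 and Tmem205, which differed by 0.14 and did not pass (adjusted p = 0.258).

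Slc6a6, the taurine transporter, measured 9.46, 9.39, 9.55 and 9.49 at 500 mg/kg and 8.59, 8.96, 8.67 and 9.14 at 1000 mg/kg, against 9.34 to 9.98 with a median of 9.79 at low doses. The 4 arrays at 1000 mg/kg lay below every low-dose array, and the 500 mg/kg arrays lay within the low-dose range, near the 100 mg/kg arrays at 9.34, 9.50, 9.54 and 9.38. It fell by 0.54 on the log2 scale (SE 0.07; limma adjusted p = 0.00196). Vehicle arrays spread from 8.21 to 10.29, and the adjusted p was 0.301 when their spread was included. Its other probe set differed by -0.74 and did not pass (adjusted p = 0.233).

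Nrep, first described in neurons and named as a neuronal regeneration related protein, measured 11.11, 11.51, 11.57 and 11.45 at 500 mg/kg and 10.82, 10.47, 10.66 and 11.30 at 1000 mg/kg, against 11.48 to 12.05 with a median of 11.72 at low doses. On 6 of the 8 high-dose arrays it was below every low-dose array, and it fell 1.55-fold (-0.63 ± 0.09 SE; limma adjusted p = 0.00288). The remaining lower genes changed by 0.25 to 0.32. Zmiz2, a coregulator of transcription, was 7.23 ± 0.23 (SD, n = 8) at high and 7.54 ± 0.09 (SD, n = 12) at low doses. Dnajc24, a co-chaperone, was 6.62 ± 0.13 at high and 6.94 ± 0.12 at low doses. Mmp14, a membrane-bound matrix metalloproteinase, was 9.04 ± 0.06 at high and 9.33 ± 0.14 at low doses, and Nectin2, a cell adhesion molecule, 8.39 ± 0.11 at high and 8.64 ± 0.09 at low doses. The limma adjusted p was 0.0192 for Zmiz2, 0.0335 for Dnajc24 and for Mmp14, and 0.0264 for Nectin2. Of the 20 fits that each left out 1 array, Zmiz2 passed in 16, Dnajc24 in 6, Mmp14 in 6 and Nectin2 in 12. Neither the other probe set of Dnajc24 nor the 2 others of Nectin2 passed, whereas that of Mmp14 did.

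**Figure D2:**
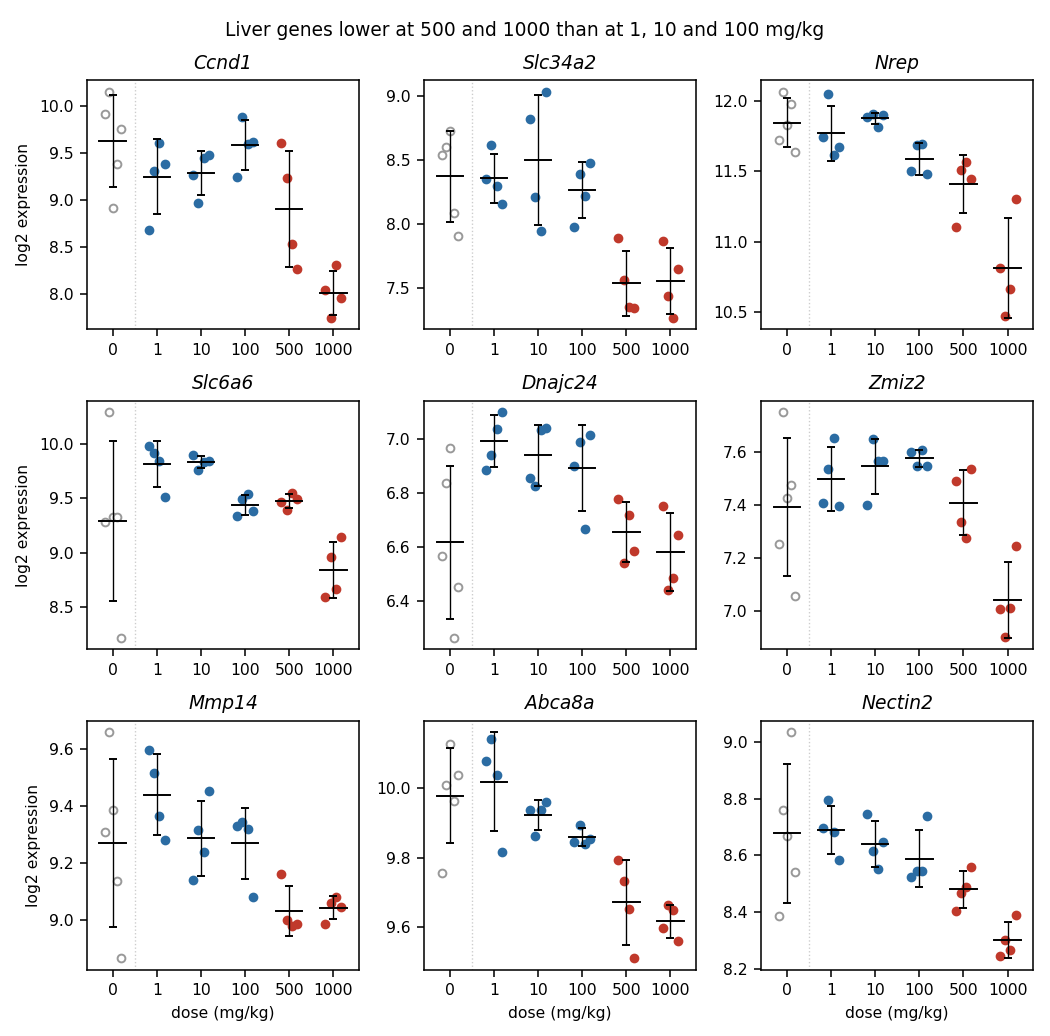
Log2 expression (vertical axes) of the 9 genes that fell, by dose in mg/kg, with 1 point per liver array, high doses in red, low doses in blue and vehicle as open grey points that entered no difference; bars are the mean ± SD of each dose. Slc34a2, Abca8a, Mmp14 and Dnajc24 stand at similar levels at 500 and 1000 mg/kg, whereas Ccnd1, Nrep, Slc6a6 and Zmiz2 are lower at 1000 mg/kg than at 500 mg/kg.

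The vehicle level, which entered no difference, was on the low-dose side of the midpoint between the 2 sides in 15 of the 17 genes, the exceptions being Slc6a6 and Dnajc24. Dnajc24 averaged 6.62 ± 0.28 (SD, n = 5) with vehicle, the level of the high doses. For 6 of the 8 higher genes the vehicle mean was also below the low-dose mean. Gstt3 was 9.06 ± 0.20 (SD, n = 5) with vehicle, and none of its low-dose arrays reached down to the highest vehicle array at 9.30. Nqo1 was 7.29 ± 0.27 with vehicle and Gsta3 6.77 ± 0.84, while Ces2c, at 7.51 ± 0.18, and Glyatl2, at 8.28 ± 0.09, were near their low-dose means of 7.45 and 8.30. Gstp1 was 8.95 ± 0.09 with vehicle, above its low-dose mean of 8.85. Its vehicle arrays, at 8.87 to 9.06, spanned its 500 mg/kg values given above, whose mean was 8.99.

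The 2 high doses differed in how much they contributed. Against the low doses, 82 genes (0.577%) passed at 1000 mg/kg in limma, 42 higher (0.295%) and 40 lower (0.281%), with 1317 (9.26%) at an unadjusted p under 0.05. At 500 mg/kg 0 passed, 586 (4.12%) had an unadjusted p under 0.05 and the smallest adjusted p was 0.680. Both comparisons use the same 12 low-dose arrays. Of the 17 genes, 16 passed at 1000 mg/kg, Mmp14 being the exception (adjusted p = 0.0722), and all 17 differed in the same direction at 500 mg/kg, whose arrays helped to choose them. The difference was the larger at 1000 mg/kg in 15 of 17. Gsta3 differed by 1.86 ± 0.21 (SE) at 1000 mg/kg and 0.79 ± 0.21 at 500 mg/kg, and Ces2c by 1.34 ± 0.15 at 1000 mg/kg and 0.42 ± 0.15 at 500 mg/kg. In a direct comparison of 1000 with 500 mg/kg, added after the values were seen, Abcc3 passed alone among all genes (0.00703%), with a difference of 1.22 ± 0.15 (SE; limma adjusted p = 0.00229). Slc34a2 differed by -0.82 ± 0.16 at 1000 mg/kg and -0.84 ± 0.16 at 500 mg/kg.

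The count at 1000 mg/kg rested on single arrays. Leaving out replicate 1, 2 or 3 of that dose gave 47, 23 or 19 genes. Among the low doses, 1 array less gave 53 (replicate 2 of 1 mg/kg), 52 (replicate 4 of 1 mg/kg, or replicate 2 of 10 mg/kg), 42 (replicate 2 of 100 mg/kg), 54 (replicate 3 of 100 mg/kg) or 53 (replicate 4 of 100 mg/kg). With the replicate number as a block it was 45. Gsta3, Abcc3, Ces2c, Nqo1, Gstt3, Gstp1, Glyatl2, Ccnd1, Nrep, Slc6a6 and Zmiz2 passed at 1000 mg/kg in each of the 20 fits that left out 1 array.

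**Figure D3:**
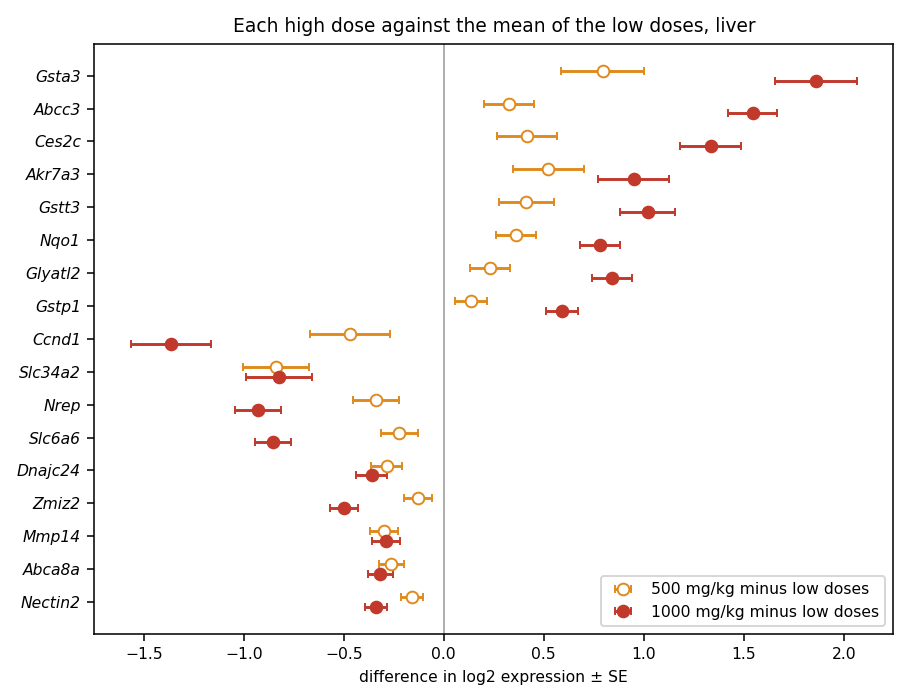
Difference in log2 expression from the mean of the low doses (horizontal axis, ± SE) for the 17 genes, with 500 mg/kg as open orange circles and 1000 mg/kg as filled red circles. Abcc3 differs by 1.54 at 1000 mg/kg and 0.33 at 500 mg/kg, whereas the circles of Slc34a2, Mmp14, Dnajc24 and Abca8a nearly coincide.

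The 3 low doses did not separate from each other in limma. An F-test over them called 0 genes, with 484 (3.40%) at an unadjusted p under 0.05 and a smallest adjusted p of 1.00. It called 1 without 100 mg/kg replicate 1. Of the 17 genes, Slc6a6 (unadjusted p = 0.00316) and Glyatl2 (unadjusted p = 0.0280) varied most among the low doses, with means at 1, 10 and 100 mg/kg of 9.81, 9.83 and 9.44 for Slc6a6 and of 8.31, 8.12 and 8.48 for Glyatl2.

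Besides the genes above, the largest rises at 1000 mg/kg among genes that passed were in Sult2a6 and Igfbp1. Sult2a6, a bile acid and steroid sulfotransferase, measured 10.28, 10.66, 10.50 and 10.53 at 1000 mg/kg, against 7.96 to 10.39 at low doses, and differed by 1.58 ± 0.31 (SE; limma adjusted p = 0.0279). Its levels at 500 mg/kg were 8.16, 7.92, 8.91 and 8.50. It differed there by -0.54, which did not pass (limma unadjusted p = 0.0993). The means of the 2 high doses lay on opposite sides of the low-dose mean of 8.92. Their direct comparison did not pass (limma adjusted p = 0.118). Igfbp1, a hepatic binding protein of IGFs that insulin represses, differed by 1.25 ± 0.26 at 1000 mg/kg (adjusted p = 0.0383), and its low doses were uneven, with means of 9.06, 9.16 and 10.08 at 1, 10 and 100 mg/kg.

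Among genes that passed, the largest falls at 1000 mg/kg were in Stac3, Cdk1 and Lox, with Ccnd1 and Nrep next. Stac3, known from the excitation-contraction machinery of muscle, measured 8.91, 6.83, 7.26 and 7.97 at 1000 mg/kg, against 8.45 to 10.60 at low doses (-1.76 ± 0.35 SE; limma adjusted p = 0.0299). Lox, the lysyl oxidase that cross-links collagen, measured 7.19, 5.44, 6.05 and 5.83 at 1000 mg/kg, against 6.51 to 8.57 at low doses (-1.58 ± 0.35 SE; adjusted p = 0.0474). Their arrays at 1000 mg/kg overlapped the low-dose range by 1 array each. Lox passed in 4 of the 20 fits that left out 1 array.

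NRF2 targets were the list with the most members that passed, 4 of 22 and all higher, where 0.0563% of all genes were: Gsta3, Nqo1, Gstp1 and Akr7a3. The list median was 0.14, beside 0.00 over all genes, and 19 of 22 differences were above 0. Array means over the list ran from 8.95 to 9.44 at high and from 8.86 to 9.07 at low doses. Ephx1, microsomal epoxide hydrolase, also rose at 1000 mg/kg (0.32; limma adjusted p = 0.0383), and Hmox1, heme oxygenase 1, fell (-0.32; adjusted p = 0.0437). The count in the high against low comparison was 2 without 500 mg/kg replicate 3. The enzymes of glutathione synthesis on this list did not pass, with differences of 0.00 for Gclc and 0.08 for Gclm, nor did thioredoxin reductase Txnrd1 at 0.07 or sulfiredoxin Srxn1 at 0.09. Me1, malic enzyme, differed by 0.58 with an adjusted p of 0.0503. The antioxidant response element letters occur in 5 of the list's 20 promoters (25.0%), against the 14.4% of all promoters given above.

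Of 18 CAR and PXR targets, 2 passed and were higher, Abcc3 and Ces2c, where 0.0563% of all genes were. The list median was 0.06. Lists share members: 8 of the 17 genes lay in any of the 42 lists, and Abcc3, Ces2c, Akr7a3, Gsta3 and Gstp1 recur between lists. The top dose alone had 5 higher, where 0.295% of all genes were, and 1 lower, where 0.281% were. The list median was 0.12 at that dose. Cyp3a18 and Cyp3a23-3a1, cytochrome P450 enzymes of the PXR response, then rose by 0.41 (limma adjusted p = 0.0383) and 0.52 (adjusted p = 0.0449), and Ugt2b1, a glucuronosyltransferase, by 0.53 (adjusted p = 0.00944). Abcc2 fell by 0.45 at 1000 mg/kg (adjusted p = 0.0202). At 500 mg/kg the list median was -0.03. The 7 AhR targets had no member that passed between high and low doses or at 1000 mg/kg, where 0.120% and 0.577% of all genes did. At those shares a list of 7 would usually hold none. Cyp1a1 differed by 0.27 between high and low doses (adjusted p = 0.753).

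Few enzymes of aldehyde and ester handling passed, though most differences between high and low doses were above 0. That held for 19 of 24 alcohol, aldehyde and carbonyl enzymes (median 0.05). All 10 carboxylesterases and glycine conjugation enzymes were above 0 (median 0.06), where 7326 of all 14217 genes were. Of 24 alcohol, aldehyde and carbonyl enzymes 1 passed in the high against low comparison, Akr7a3, where 0.0563% of all genes were higher. The top dose alone had 3, with Aox1, aldehyde oxidase, at 0.43 (limma adjusted p = 0.0197) and Aldh1a1, retinaldehyde dehydrogenase, at 0.47 (adjusted p = 0.0197). Over all genes 0.295% were higher at that dose. For this list, leaving out replicate 3 of 1000 mg/kg gave 0, leaving out replicate 2 gave 1, and leaving out replicate 1 of 1 mg/kg gave 6. Of the 10 ester and glycine conjugation enzymes Ces2c alone passed between high and low doses, where 0.0563% of all genes were higher. At 1000 mg/kg 2 of the 10 passed, Ces2c and Acsm2, where 0.295% of all genes were higher. Acsm2, a medium-chain acyl-CoA synthetase that starts glycine conjugation, measured 8.20, 7.84, 8.53 and 7.83 at 1000 mg/kg, against 6.36 to 7.36 at low doses, a rise of 1.08 ± 0.16 (SE; adjusted p = 0.00190). Its levels at 500 mg/kg were 7.05, 7.11, 6.82 and 7.38, about the low-dose level. Glyat, the liver's glycine N-acyltransferase, differed by 0.07 between high and low doses and did not pass.

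Cholesterol synthesis genes passed at the top dose alone, and none did at 500 mg/kg, where 0 of all genes did. None passed in the direct comparison of 1000 with 500 mg/kg either, where 0.00703% of all genes did. At that share a list of 18 would usually hold none. In that direct comparison the limma adjusted p was 0.588 to 0.760 for Acat2, Fdft1, Msmo1 and Dhcr7. In the high against low comparison 0 of 18 passed in limma, where 0.120% of all genes did. All 18 differences were above 0, with a median of 0.33 and a range of 0.08 to 0.64. The top dose alone had 7 that passed and were higher, where 0.295% of all genes were: Acat2, Idi1, Fdft1, Cyp51, Msmo1, Ebp and Dhcr7. Acat2, the cytosolic acetoacetyl-CoA thiolase, measured 9.66, 9.81, 10.44 and 10.21 at 1000 mg/kg and 9.56, 9.11, 9.64 and 10.02 at 500 mg/kg, against 8.70 to 9.57 at low doses. The list median at 1000 mg/kg was 0.50 with all 18 differences above 0, and at 500 mg/kg it was 0.15 with 16 above 0, while 7121 of all 14217 genes were above 0 at 1000 mg/kg. The difference of Acat2 was 0.87 ± 0.17 (SE; adjusted p = 0.0246) at 1000 mg/kg. Msmo1, a sterol C4-methyl oxidase, differed by 0.66 ± 0.13 (adjusted p = 0.0246), and Fdft1, squalene synthase, by 0.48 ± 0.09 (adjusted p = 0.0216).

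The cholesterol count at 1000 mg/kg was 0 when replicate 2 or 3 of that dose was left out and 1 when replicate 4 was. It was 3 with a replicate block and 3 when replicate 1 of 500 mg/kg was left out. Leaving out replicate 2, 3 or 4 of 1 mg/kg, replicate 2, 3 or 4 of 10 mg/kg or any replicate of 100 mg/kg gave 3 or 4. Array means over the list ran from 9.95 to 10.80 at high and from 9.86 to 10.24 at low doses, with vehicle at 9.40 to 10.08. The core letters TCACNCCAC of a sterol regulatory element, the site that SREBP2 binds, occur in 0 of the 15 list promoters in RefSeq and in 131 of 11734 (1.12%). At a share that low, 0 of 15 cannot tell these promoters from others. Only these letters in this window were searched, and binding was not tested.

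Among mitosis genes 1 fell at 1000 mg/kg, where 0.281% of all genes did. None of 27 passed between high and low doses in limma, where 0.120% of all genes did. The median was -0.18, and 25 of the 27 differences were below 0. At 1000 mg/kg the median was -0.48 and all 27 were below 0, whereas at 500 mg/kg the median was 0.09. No mitosis gene passed in the direct comparison of 1000 with 500 mg/kg, where 0.00703% of all genes did and Cdk1 had an adjusted p of 0.131. Cdk1, the kinase that starts mitosis, was the member that passed, at 4.06, 4.16, 3.77 and 4.51 at 1000 mg/kg, against 4.95 to 6.69 at low doses (-1.69 ± 0.33 SE; adjusted p = 0.0257). At 500 mg/kg it measured 5.37, 5.63, 7.71 and 5.70. The array with 7.71, replicate 3, also had the highest mean over the mitosis list, 6.44, against 4.90 to 5.08 on the other 500 mg/kg arrays, 4.52 to 4.64 at 1000 mg/kg and 4.79 to 5.84 at low doses. Without it 9 mitosis genes were lower at 1000 mg/kg, where 50 of all 14217 genes were. When only the 1000 mg/kg and low-dose arrays were fitted, 6 mitosis genes were lower, where 44 of all genes were. The levels of Cdk1, Mki67 and Cdkn3 near 4 are not shown to lie above background.

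Of 19 G1 cyclins and kinase inhibitors only Ccnd1 passed, where 0.0633% of all genes were lower, and the list median was 0.01. Cdkn1b, the inhibitor p27, differed by 0.13 and Ccne2, cyclin E2, by -0.14. The growth hormone and IGF axis had 0 of 18 members past the threshold between high and low doses, where 0.120% of all genes were. Its median was -0.08. At 1000 mg/kg Igfals, the acid-labile subunit that carries IGF1 in blood, fell by 0.40 (limma adjusted p = 0.0353) and Serpina6, corticosteroid-binding globulin, by 0.58 (adjusted p = 0.0246), while Igfbp1 rose. Igf1 differed by -0.15 between high and low doses and did not pass (adjusted p = 0.235), though 6 of the 8 high-dose arrays lay below every low-dose array. Of 22 efflux and uptake transporters Abcc3 alone passed between high and low doses, where 0.0563% of all genes were higher. At 1000 mg/kg Slc22a8, an organic anion transporter, also fell, by 0.56 (limma adjusted p = 0.0255).

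**Figure D4:**
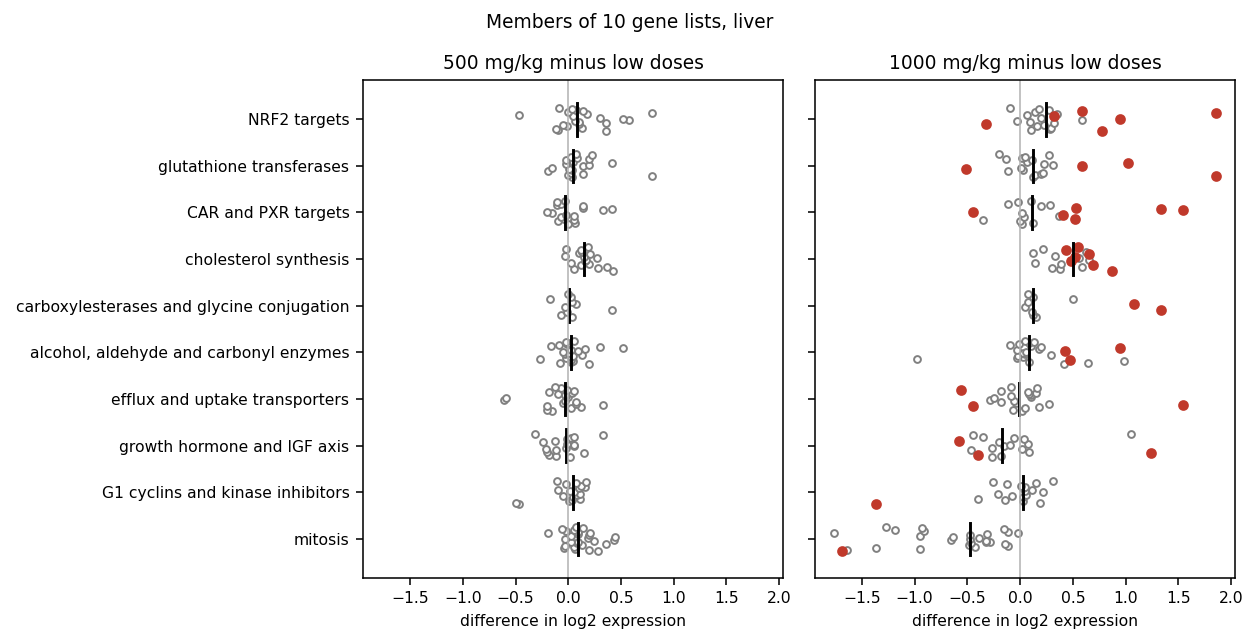
Difference in log2 expression from the low doses (horizontal axes) for each measured member of 10 gene lists, at 500 mg/kg (left panel) and 1000 mg/kg (right panel), with genes past a limma adjusted p of 0.05 as filled red points, other genes as open grey points and the list median as a black bar. At 1000 mg/kg all 18 cholesterol synthesis genes lie above 0 and all 27 mitosis genes below it, and at 500 mg/kg no point is red.

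Whether the liver differences were particular to liver was tested against the same contrast in kidney, over 39 arrays of the 2 organs. The difference between organs passed for 8 genes (0.0563%), 4 of them higher in liver (0.0281%) and 4 lower (0.0281%), and 5 of the 8 were among the 17. Abcc3 differed by 0.93 in liver and 0.10 in kidney, so that the liver difference was larger by 0.83 ± 0.12 (SE; limma adjusted p = 0.000720). Ces2c differed by 0.88 in liver and 0.08 in kidney (0.80 ± 0.15 SE; adjusted p = 0.0238) and Gstt3 by 0.72 in liver and 0.08 in kidney (0.64 ± 0.12 SE; adjusted p = 0.0238). Slc6a6 differed by -0.54 in liver and 0.11 in kidney (-0.65 ± 0.10 SE; adjusted p = 0.00159), and Abca8a by -0.29 in liver and 0.17 in kidney (-0.46 ± 0.09 SE; adjusted p = 0.0379).

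For the other 12 of the 17 genes the test between organs did not pass. Gsta3 differed by 1.33 in liver and 0.41 in kidney (limma adjusted p of the difference = 0.108), and Nqo1 by 0.57 in liver and 0.08 in kidney (adjusted p = 0.114). Nrep was lower at the high doses in both organs, with differences of -0.63 in liver and -0.51 in kidney, and passed in kidney as well (adjusted p = 0.0133). Cks2, a cyclin kinase subunit, Lect2, a hepatocyte chemokine, and Enpp5, a membrane phosphodiesterase, passed through their kidney differences of -0.70, 0.47 and 0.34, with 0.09, -0.08 and -0.13 in liver. Leaving out kidney replicate 2 or liver replicate 4 of 500 mg/kg lowered the count of 8 to 2, and leaving out kidney replicate 2 or liver replicate 2 or 3 of 1000 mg/kg lowered it to 5. Leaving out liver replicate 2 of 500 mg/kg raised it to 14 and liver replicate 1 of 1000 mg/kg to 16. Abcc3 and Slc6a6 passed in each of these fits.

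**Figure D5:**
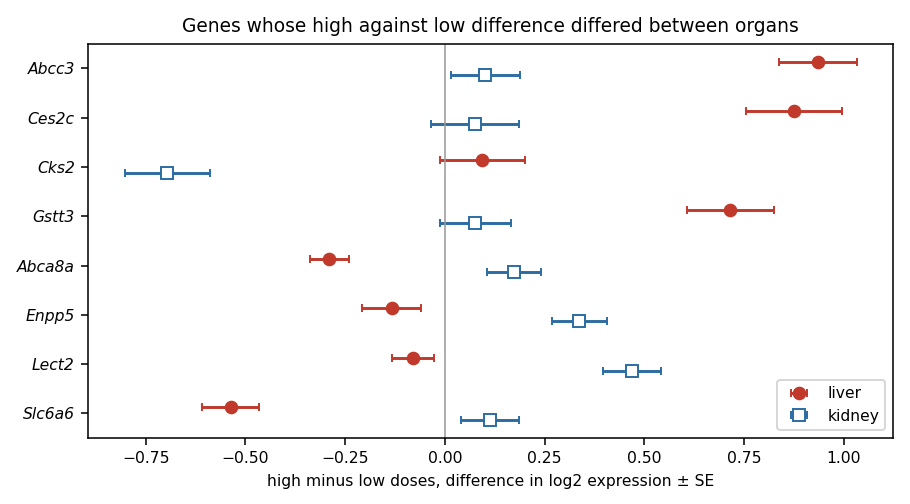
High minus low dose difference in log2 expression (horizontal axis, ± SE) in liver (filled red circles) and kidney (open blue squares) for the 8 genes whose difference passed the test between organs. Abcc3, Ces2c and Gstt3 lie apart from 0 in liver and near it in kidney, whereas Cks2, Lect2 and Enpp5 lie further from 0 in kidney.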

How the data were processed

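Per the labels' protocols, Affymetrix Rat Genome 230 2.0 arrays received total RNA of 49 liver and kidney samples. Deposited values are log2 per probe set and, per the submitters' processing notes, came from RMA. The RMA version, and whether the organs were normalized together, are not given in the sources used here. RMA makes the distributions of arrays alike, which can mask a shift common to most genes. Detection calls were not used.

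Of 31099 probe sets 20826 had 1 gene symbol in the platform annotation, 436 had several, 9780 had none and 57 were controls. Each of 14217 genes was represented by its brightest probe set on average across all 49 arrays. One mean per dose was fitted with limma 3.58.1 in R 4.3.3 to the 20 dosed liver arrays, and group means were weighted equally. The kidney comparison used 39 arrays, 3 of them at 500 mg/kg, where the series text gives 4. A gene passed at an adjusted p (Benjamini-Hochberg) under 0.05. The fits were tested on simulated data. The labels call the samples biological replicates, and p-values measure the spread between them. Same-numbered arrays of different doses deviated together no more than others (mean correlation -0.0038 over 40 pairs, 6 of them over 0.1), so the numbers were not taken to pair them.

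The arrays compared and the 42 gene lists, 10 of them cell type markers, were chosen with earlier results of these data known. The genes named by rule were called genes without overlap between the sides, the 5 largest called differences each way at each high dose and between organs, and up to 4 members with the smallest p of each list described. The other called genes, list members named at 1000 mg/kg, and Gclc, Gclm, Txnrd1, Srxn1, Me1 and Cyp1a1 were chosen after their values were seen. Promoters are from RefSeq (GRCr8), of which 11734 matched a measured gene by symbol.

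Alternatives were the mean of a gene's probe sets, the brighter genes only, quantile normalization, median centring, robust moderation with a variance trend, the replicate number as a block, weights per array, 2 groups without dose means, the spread of all 25 liver arrays, high doses against 1 and 10 mg/kg only, a random block across organs, and leaving out each array. Fitting all probe sets was added after the data were seen.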

Additional observations from a re-analysis of the deposited data

Results flagged for a closer look

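Single arrays that stood apart from the other arrays of their dose were looked for in 294 dose groups of the 49 genes named, and 15 groups (5.10%) held one, where chance flags about 1 in 20 groups. Replicate 3 at 500 mg/kg had 2 of them, with Cdk1 at 7.71 against 5.37 to 5.70 on the other three and Ccnb2, a mitotic cyclin, at 7.53 against 4.93 to 5.12. At 500 mg/kg replicate 4 measured 12.05 for Msmo1 against 11.32 to 11.40 and 7.92 for Enpp5 against 8.39 to 8.47, and replicate 1 measured 9.16 for Mmp14 against 8.98 to 9.0. At 1000 mg/kg replicate 3 measured 12.93 for Igf1 against 12.97.

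Among the low doses, 100 mg/kg replicate 4 measured 9.08 for Mmp14 against 9.32 to 9.34, 8.74 for Nectin2 against 8.53 to 8.55 and 7.21 for Acsm2 against 6.94 to 6.98. Replicate 1 at 100 mg/kg measured 13.36 for Adh1c, an alcohol dehydrogenase, against 13.03 to 13.08. At 1 mg/kg Ugt2b1 was 12.32 on replicate 4 against 12.19 to 12.20, and Slc22a8 was 9.69 on replicate 1 against 10.06. Among the vehicle arrays, which entered no difference, replicate 2 measured 8.19 for Acat2 against 8.89 to 9.17 and 9.83 for Dhcr7 against 10.55 to 10.80, and replicate 4 measured 12.61 for Serpina6 against 12.41 to 12.44.

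The high against low difference itself differed between liver and kidney in 8 genes by the limma test of that difference. Liver minus kidney, it was 0.83 for Abcc3, 0.80 for Ces2c, 0.79 for Cks2, 0.64 for Gstt3, -0.46 for Abca8a, -0.47 for Enpp5, -0.55 for Lect2 and -0.65 for Slc6a6.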

How the results depend on the processing

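Among the 49 genes named, the only ones whose sign was followed, no alternative reversed the sign of a difference that passed. The 17 genes of the high against low comparison became 44 with the brighter genes only, 43 with a variance trend, 11 with the replicate block and 6 as 2 groups only, and 10 to 21 when each array was left out. With the spread of all 25 liver arrays 16 genes passed, 11 higher and 5 lower, and 12 of the 16 were among the 17. Gsta3, Nqo1, Slc34a2 and Abca8a passed under all 30 alternatives run for them. The 82 genes at 1000 mg/kg became 129 with the brighter genes only, 136 with a variance trend and 45 with the replicate block, and 19 to 95 when each array was left out. At 500 mg/kg limma called 0 genes in each, also 0 to 0 when each array was left out, and the low doses differed in 0 to 1. The 8 genes between organs became 19 with the brighter genes only, 24 with array weights and 15 with a random block of dose and replicate number across organs, and 2 to 16 when each array was left out. The cause of these shifts was not tested. All probe sets fitted together gave 22 calls. Replicate numbers did not pair the arrays, and 4 of 20 arrays correlated best with their own number. The number of arrays, 4 a dose, and unknown background at low levels limit precision.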
